A study of Mus musculus with 8 samples.

Results

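Gene expression after 6 days of culture was compared with that after 3 days in mouse primordial germ cells cultured toward embryonic germ (EG) cells. The comparison took the arrays named Day6(2i+A83) and Day3(2i+A83), 4 of the 8 one-colour TORAY oligonucleotide arrays of the study, 2 in each group, and every probe of the deposited table. All cells carried a Nanog-GFP reporter, a green fluorescent protein under the control of the pluripotency gene Nanog. The labels give the starting cells as primordial germ cells (PGC) of E11.5 embryos and the medium as Knockout DMEM with 15% serum replacement (KSR), LIF and bFGF, with 1 µM PD325901, a MEK inhibitor, 3 µM CHIR99021, an inhibitor of the kinase GSK3, and 250 nM A83-01, which blocks the receptors of Activin, Nodal and TGF-beta. Per the series' design text, candidate pluripotent cells were purified by fluorescence-activated sorting during culture, but the gate of each sample is not stated. The other 4 arrays are E11.5 PGC and EG cells, named EG(2i+A83), 2 each. They entered the statistical model for its estimate of spread, and for some genes their levels are given beside those of Day3 and Day6. The protocol text is the same on every sample. It does not say whether the 2 arrays of a group came from separate cultures, how many embryos were pooled, or which sex the embryos were. The p-values therefore measure the spread between arrays, which may be technical.

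Primordial germ cells are the precursors of eggs and sperm. In the embryo they express pluripotency genes and germline RNA-binding proteins side by side, and are held to the germline by factors that repress somatic genes and guard the survival of the lineage. In culture with LIF and growth factors a small share of them turn into EG cells, which grow without limit and resemble embryonic stem cells. MEK and GSK3 inhibition, known together as 2i, holds mouse stem cells in the naive state, and blocking the Activin and TGF-beta receptors is used to favour the conversion.

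Germ cell genes were bright at Day3, as the label of primordial germ cells would have it. Dppa3, a maternal and germline factor that protects DNA methylation, had intensities of 5176 and 3798 at Day3 and 456 and 1648 at Day6. Dazl, a germline RNA-binding protein, read 999 and 1971 at Day3 and 188 and 1024 at Day6. Nanog, a core pluripotency factor, read 2671 and 4320.5 at Day3 and 4294 and 8992 at Day6. All 3 lay far above the dim limit of 4.24, the 25th percentile of the probes' mean intensities. The 2 Day6 arrays were not alike. Replicate 1 was the lower of the pair in Dppa3 and Dazl, and it stood apart in some mesenchymal genes but not in others. Thy1, a surface glycoprotein of fibroblasts and other cells, read 5.37 and 1.86 at Day3 and 747 and 10.7 at Day6, and S100a4, a calcium-binding protein of fibroblasts named after its values were seen, read 44.3 and 15.6 at Day3 and 1335 and 13.2 at Day6. The level at Day6 replicate 1 was thus high for both genes, while Day6 replicate 2 read close to the Day3 arrays for S100a4. EG cells also had both, at 96.6 and 71.04 for Thy1 and 808 and 190 for S100a4. Dcn and Twist1, mesenchymal genes also named after their values were seen, went otherwise. Dcn read 75.9 and 173 at Day3 and 68.2 and 18.9 at Day6, and Twist1 75.5 and 83.2 at Day3 and 82.6 and 84.1 at Day6. The array names in the labels also form 2 series. In series A are replicate 1 of Day3, Day6 and E11.5 PGC, together with the EG pair, and in series B the arrays numbered 2 of Day3, Day6 and E11.5 PGC. The change from Day3 to Day6 is therefore given within each series as well as in the model, which had the array series as a block.

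Across the array, 361 of 20015 probes tested (1.8%) changed between Day3 and Day6 in limma at a Benjamini-Hochberg adjusted p under 0.05. Of all probes tested, 195 (0.974%) were called higher at Day6 and 166 (0.829%) lower. All 361 had the same sign in both series (62.9% of all probes did). For 194 of the 195 higher probes and 162 of the 166 lower ones the Day3 and Day6 arrays did not overlap (30.6% of all probes). A call from a model blocked on the series favours both properties, so they describe the calls and do not support them. The called changes had sizes of 1.09 to 4.51 on the log2 scale when higher, with a median of 1.87, and of 1.11 to 5.38 when lower, with a median of 1.73. The genes that rose were dim to begin with: their median intensity went from 12.4 at Day3 to 55.1 at Day6. Those that fell were bright, with a median of 95.0 at Day3 and 21.7 at Day6, while the median over all probes was 25.7 and 24.4. Choice by the change favours low Day3 values among rises and high ones among falls, so these medians too describe the calls. Without the block no probe passed, although 1783 probes (8.91%) had an unadjusted p under 0.05, against 3591 (17.9%) with it. Leaving out either Day3 array or Day6 replicate 1 left 0 calls, leaving out Day6 replicate 2 left 1 and leaving out either EG array 96, and the directions of all 361 held in each of these fits. That the directions held was largely fixed in advance, because all 361 had the same sign in both series, so it does not support the calls. Fewer cells of a type and less RNA per cell cannot be told apart in such bulk samples.

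**Figure D1:**
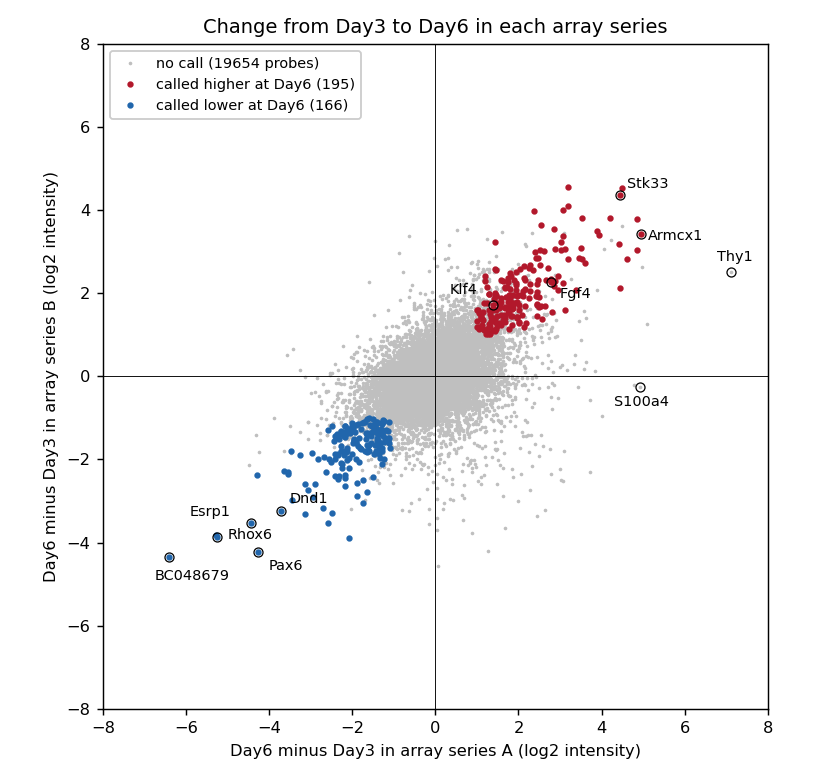
Each point is a probe, placed by its change from Day3 to Day6 in log2 intensity in array series A (horizontal axis) and array series B (vertical axis). The 195 probes called higher (red) and 166 called lower (blue) lie in the upper right and lower left, while Thy1 and S100a4 lie at the right, with a far larger change in series A than in series B. All labelled genes are circled.

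The 12 steepest losses included the germline genes Dnd1 and Cpeb1, the epithelial genes Esrp1 and Cldn6 and the developmental factor Pax6. In what follows a change is the difference Day6 minus Day3 in log2 intensity with the standard error of the model, and 2 arrays stand behind each group. BC048679 read 438 and 75.5 at Day3 and 5.12 and 3.72 at Day6, so that both Day3 arrays lay far above both Day6 arrays. It fell 41.7-fold (-5.38 ± 0.49, adjusted p = 0.0186 in limma). Rhox6, a homeobox gene of the reproductive Rhox cluster on the X chromosome, read 831 and 2851 at Day3 and 21.8 and 196 at Day6. Its level differed between replicates on both days, the higher of each pair being replicate 2, and the days did not overlap. It fell 23.6-fold (-4.56 ± 0.59, adjusted p = 0.0300 in limma), from 1338 and 3066 in E11.5 PGC, and EG cells were at 171 and 64.5. Rhox genes are near copies of one another, and the probe may read more than one of them. Pax6, a transcription factor of the eye and nervous system, read 143 and 94.7 at Day3 and 7.42 and 5.04 at Day6 and fell 19.04-fold (-4.25 ± 0.26, adjusted p = 0.0151 in limma). Its E11.5 PGC arrays read 43.8 and 33.6, below those of Day3, and its EG arrays 7.90 and 5.07, close to those of Day6. Esrp1, an epithelial splicing regulator, read 164 and 71.4 at Day3 and 7.63 and 6.15 at Day6 and fell 15.8-fold (-3.98 ± 0.54, adjusted p = 0.0306). Its EG arrays read 147 and 48.9, above those of Day6.

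Dnd1, an RNA-binding protein required for the survival of germ cells, read 568 and 288 at Day3 and 43.02 and 30.7 at Day6. Both Day6 arrays lay under both Day3 arrays. It fell 11.1-fold (-3.48 ± 0.22, adjusted p = 0.0151 in limma), from 2140.0 and 1555 in E11.5 PGC. EG cells read 89.3 and 104, above the Day6 arrays. Cpeb1, which controls the translation of stored messages in oocytes, read 131 and 216 at Day3 and 14.9 and 21.7 at Day6 and fell 9.37-fold. The remaining 6 of the 12 steepest falls were in Pdlim4, a PDZ and LIM domain protein (-2.96), Gna14, a G protein subunit (-2.95), Atp10a, a phospholipid flippase (-2.94), Enpp3, an ectonucleotidase (-2.92), Cldn6, a tight junction claudin (-2.90), and Nrsn1, a neuronal membrane protein (-2.87). None of these 6 had overlapping Day3 and Day6 arrays, which their choice by call favours (30.6% of all probes had no overlap). In EG cells Enpp3 read 134 and 98.3, near its Day3 level of 118 and 107. Pdlim4 read 33.1 and 36.05 there, within its Day6 range of 18.4 to 43.1.

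Other genes fell to near the floor of the array, so that their fold depends on how dim values were read. H19, an imprinted non-coding RNA, read 72.1 and 18.97 at Day3 and 3.70 and 3.67 at Day6, while its EG arrays read 150 and 201. Isl2, a homeobox factor of motor neurons, read 25.2 and 37.2 at Day3 and 2.31 and 4.74 at Day6, and its EG arrays had no value, so that the model took its spread from the other groups. Lef1, a transcription factor that acts on Wnt target genes, read 37.01 and 12.2 at Day3 and 3.18 and 2.45 at Day6. In these 3 genes every Day6 array lay below every Day3 array. Zfp521, a zinc finger factor, fell by 3.05 ± 0.40, Opn3, an opsin, by 2.88 ± 0.43 and Trim50, a ubiquitin ligase, by 2.74 ± 0.25.

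The steepest gains began from low intensities at Day3 and included the kinase gene Stk33, the adenylyl cyclase gene Adcy2 and the X-linked genes Armcx1 and Armcx2. Stk33, a serine/threonine kinase, read 9.57 and 11.2 at Day3 and 209 and 231 at Day6, and rose 21.2-fold (4.40 ± 0.54, adjusted p = 0.0291 in limma). EG cells read 10.6 and 27.5, below Day6. Adcy2, an adenylyl cyclase that makes cyclic AMP, read 14.2 and 11.98 at Day3 and 407 and 165 at Day6 and rose 19.9-fold (4.31 ± 0.52, adjusted p = 0.0284). Its 2 Day6 arrays were both above the EG arrays, at 48.7 and 148. Crygf, a lens crystallin with near copies in the genome, read 12.2 and 20.05 at Day3 and 226 and 282 at Day6 and rose 16.1-fold, and EG cells read 15.1 and 38.6. These 3 genes were thus brighter at Day6 than at any other stage, in all arrays.

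Armcx1, an X-linked protein of the mitochondrial outer membrane that takes part in mitochondrial transport, read 5.12 and 15.2 at Day3 and 157 and 162 at Day6 and rose 18.1-fold (4.18 ± 0.36, adjusted p = 0.0186 in limma). Its EG arrays, at 152 and 156, were at the Day6 level. Its neighbour and relative Armcx2 read 3.89 and 7.19 at Day3 and 82.6 and 65.1 at Day6 and rose 13.9-fold (3.79 ± 0.34, adjusted p = 0.0186). Laptm5, a lysosomal membrane protein of blood cells, read 13.8 and 8.54 at Day3 and 205 and 96.03 at Day6, and Myo1f, a myosin of leukocytes, read 6.38 and 12.5 at Day3 and 97.7 and 133 at Day6. For both genes each Day6 array was above each Day3 array, and the EG arrays were in or above the Day6 range, at 200.2 and 261 and 220.0 and 466. Mcf2, also X-linked, rose by 3.30 ± 0.21, Lrrc15, a membrane protein with leucine-rich repeats, by 3.23 ± 0.34, Itm2a, an X-linked membrane protein, by 3.20 ± 0.30, and Gfpt2, an enzyme of hexosamine synthesis, by 3.19 ± 0.24. Pla2g1b, a secreted phospholipase, rose by 3.95 ± 0.43 on its dimmer probe, while its brighter probe read 128 and 148 at Day3 and 201 and 686 at Day6 and had no call (1.44, adjusted p = 0.180).

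Among called genes at or under the dim limit at Day3, the 6 brightest at Day6 were Pdcl2, a phosducin-like protein of male germ cells, Pdgfc, a platelet-derived growth factor, Nlrp4f, an NLRP family member of oocytes, Ct55, a cancer/testis antigen, Serpinb1b, a protease inhibitor, and Ttn, the giant muscle protein titin. Pdgfc read 2.75 and 6.09 at Day3 and 24.9 and 104 at Day6 and Nlrp4f, which has near copies, read 1.73 and 4.71 at Day3 and 37.5 and 20.6 at Day6. Both went from near the floor to well above it in each replicate. Ttn was called on 1 probe (3.88 ± 0.52), and another of its probes had a change of 1.07 with no call.

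**Figure D2:**
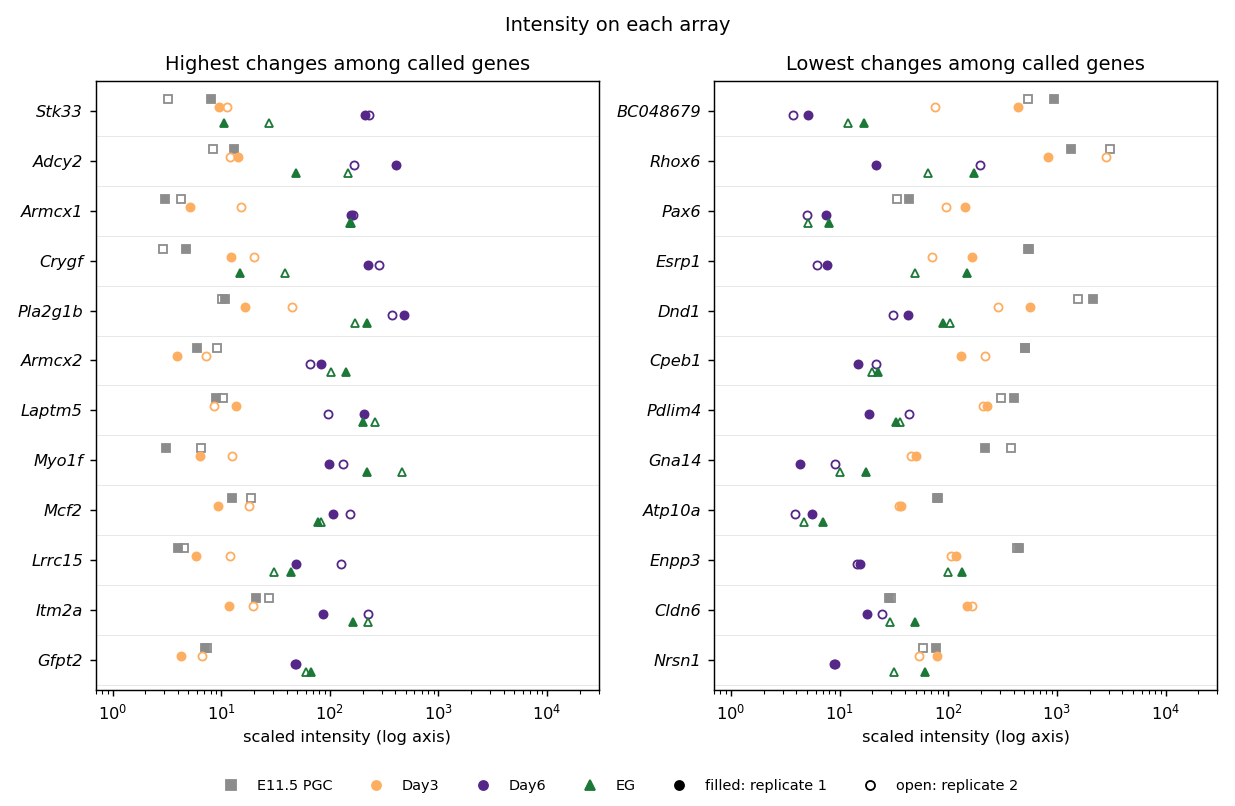
Scaled intensity (log axis) on each of the 8 arrays for the 12 called genes with the highest change (left) and the 12 with the lowest change (right) from Day3 to Day6, replicate 1 filled and replicate 2 open. Day3 (orange) and Day6 (purple) do not overlap for any of the 24 genes, which their choice by call favours. Stk33, Adcy2 and Crygf are brighter at Day6 than in EG cells (green).

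Genes of the X chromosome made up a larger share of the gains than of the probes tested. By the RefSeq gene table (GRCm38.p6), 22 of 156 probes called higher and placed on a chromosome were on X (14.1%), against 472 of 14495 tested (3.26%) and 1 of 136 called lower (0.735%), Rhox6. Put by chromosome, 4.66% of X probes were called higher, against 0.956% of autosomal probes and 2.26% on chromosome 13, the next in order. Probes without a call also lay higher on X. The median change of X probes was 0.19, against -0.06 for autosomes, and the median of every autosome was negative. It was 0.18 within series A, 0.23 within series B and 0.17 over probes above the dim limit on both days. On X, 47.7% of probes were higher in both series, against 27.4% on autosomes. In the first step, from E11.5 PGC to Day3, the median X probe had a change of 0.00 and the autosomal one -0.14. These figures describe this set, with no test, because the X chromosome was picked out as a group with the calls in view.

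The X-linked genes that rose are of many kinds. Besides Armcx1, Armcx2, Bex1, Mcf2, Itm2a and Ct55, they include, named here after their values were seen, Cited1, a transcriptional co-regulator (2.60 ± 0.35), Prps2, an enzyme of nucleotide synthesis (2.68 ± 0.31), Was, the Wiskott-Aldrich actin regulator (1.87 ± 0.25), Pcdh19, a protocadherin (1.95 ± 0.22), Egfl6, a matrix protein (2.13 ± 0.26), and Pgrmc1, a heme-binding membrane protein (1.27 ± 0.19). The Armcx and Bex families, which share 1 stretch of the chromosome, had the highest median of the 42 gene lists counted. Of 12 tested, 3 were called higher, against 0.974% of all probes, and 0 lower. Their median was 1.22 (1.17 within A, 1.21 within B), and 10 were higher in both series. Bex1, a small adaptor protein, read 3633 and 1962 at Day3 and 10840.0 and 7261 at Day6 and rose 3.32-fold (1.73 ± 0.21, adjusted p = 0.028 in limma). In the stretch from Btk to Bex1, chosen after values were seen, 6 of 20 tested probes were called higher and 0 lower, and 16 were higher in both series (median 1.24). The sex of the embryos is not in the labels. Of the Y-linked genes measured, named after their values were seen, Zfy1, a zinc finger gene, read 42.1 and 71.4 at Day3 and 14.8 and 24.6 at Day6 (-1.52 ± 0.28, adjusted p = 0.0557) and Kdm5d, a histone demethylase, read 31.2 and 40.7 at Day3 and 22.3 and 33.7 at Day6 (-0.38 ± 0.19), both without a call. The part of a shift in the mix of male and female cells in the X-linked gains was not tested. Among 5 tested genes listed with X inactivation none was called (median 0.10, with both series below 0). They include Zfp42, which lies on chromosome 8. Xist, Tsix, Jpx and Ftx of the X-inactivation centre had no probe, so their levels are not known here.

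**Figure D3:**
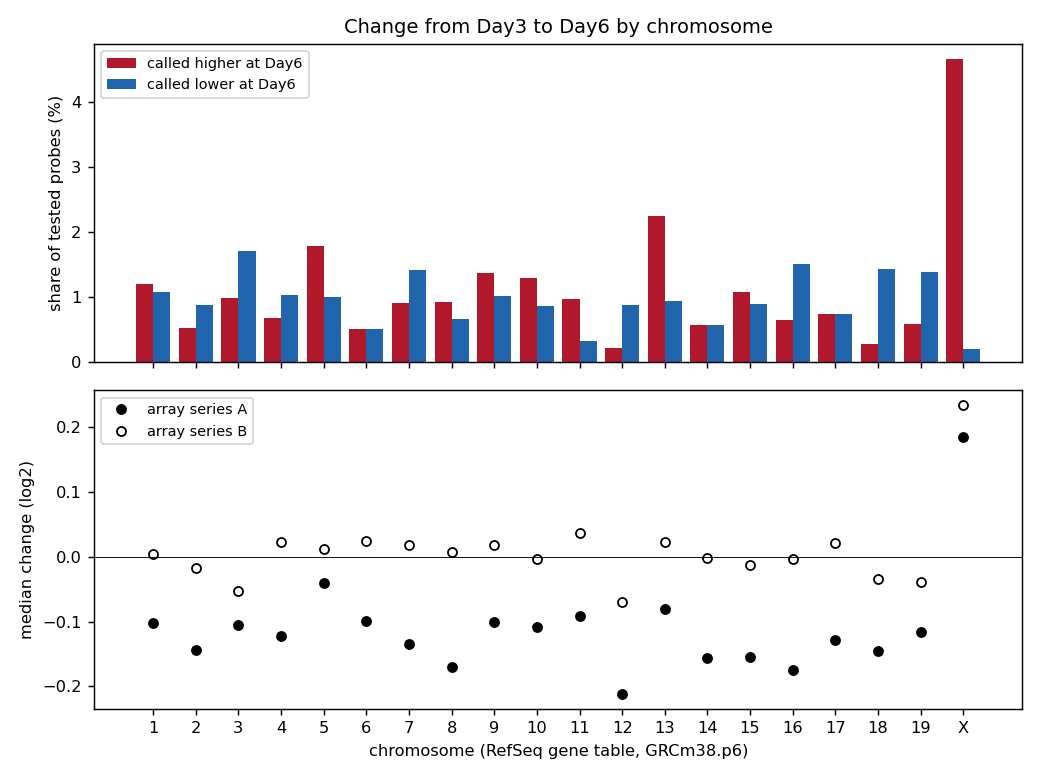
For each chromosome, the share of tested probes called higher (red) or lower (blue) at Day6 in percent (top) and the median change in log2 intensity in array series A (filled) and series B (open) (bottom). Chromosome X stands highest in both panels, at 4.66% called higher and medians of 0.18 and 0.23.

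The start regions of the genes that rose had fewer CpG dinucleotides than those of the genes that fell, a description with no test. A CpG is a C followed by a G, the site of DNA methylation in mammals, and most widely expressed genes have a CpG-rich promoter. RefSeq start regions (GRCm38.p6, 250 bases before to 50 after the first listed start) were found for 11533 of 14354 tested genes. The ratio of CpG observed to that set by base composition was over 0.6 in 45 of 119 genes called higher (37.8%), 64 of 103 called lower (62.1%) and 7038 of all 11533 (61.0%). On X it was 4 of 20 called higher (20%) and 45.1% of those tested. The GC box GGGCGG, on either strand, was found in 47.9% of the called-higher and 69.9% of the called-lower regions, and in 56.9% of all, and it overlaps with CpG-rich sequence by its own letters. The E2F letters TTCCCGC, on either strand, were found in 4.20%, 11.7% and 7.28%. Called-higher genes were also dimmer at Day3 (median 12.4 against 95.0), and the part of expression level in these shares was not tested.

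Start regions of 4 genes show the range, with CpG dinucleotides in capitals, each printed 5′ to 3′ on the gene's own strand. Armcx1 (chrX:134717688-134717987, plus strand) and Armcx2 (chrX:134809172-134809471, minus strand) stand for the X-linked gains, Fgf4 (chr7:144861136-144861435, plus strand) for the autosomal pluripotency gains, and Tdrkh (chr3:94412994-94413293, plus strand) for the germline losses. All 4 windows hold the annotated transcription start and thus the beginning of the first exon.
Armcx1: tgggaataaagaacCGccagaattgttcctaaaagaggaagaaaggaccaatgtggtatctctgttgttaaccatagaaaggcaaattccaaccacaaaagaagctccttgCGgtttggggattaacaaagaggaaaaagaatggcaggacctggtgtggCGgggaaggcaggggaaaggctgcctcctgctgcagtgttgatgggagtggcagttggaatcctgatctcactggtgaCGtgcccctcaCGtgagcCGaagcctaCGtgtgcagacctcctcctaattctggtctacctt
Armcx2: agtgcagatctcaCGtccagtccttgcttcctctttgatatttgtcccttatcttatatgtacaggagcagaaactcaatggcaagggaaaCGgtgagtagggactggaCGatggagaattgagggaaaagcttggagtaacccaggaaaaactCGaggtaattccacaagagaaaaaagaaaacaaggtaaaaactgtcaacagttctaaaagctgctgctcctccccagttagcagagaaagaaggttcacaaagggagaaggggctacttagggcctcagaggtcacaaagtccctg
Fgf4: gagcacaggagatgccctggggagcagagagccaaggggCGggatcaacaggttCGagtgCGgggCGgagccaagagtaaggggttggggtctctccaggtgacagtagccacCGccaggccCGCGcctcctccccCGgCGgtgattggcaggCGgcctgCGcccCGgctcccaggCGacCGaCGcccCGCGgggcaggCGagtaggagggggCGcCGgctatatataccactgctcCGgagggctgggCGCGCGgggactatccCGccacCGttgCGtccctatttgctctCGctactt
Tdrkh: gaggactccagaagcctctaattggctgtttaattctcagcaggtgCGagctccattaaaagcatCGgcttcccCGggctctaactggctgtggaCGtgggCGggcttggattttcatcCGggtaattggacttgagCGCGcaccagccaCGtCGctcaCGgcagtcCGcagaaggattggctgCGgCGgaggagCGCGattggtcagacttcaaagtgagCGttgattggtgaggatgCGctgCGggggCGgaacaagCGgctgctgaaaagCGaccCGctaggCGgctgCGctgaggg
Armcx1 had 7 CpG and a ratio of 0.377, Armcx2 4 and 0.26, Fgf4 28 and 0.774, and Tdrkh 25 and 0.956. The capitals are thus sparse in both X-linked genes and dense in the other pair, 1 of which rose and 1 of which fell. Fgf4 does not stand for every autosomal pluripotency gain: the ratio was 0.295 for Zfp57 and 0.229 for Nodal, but 0.974 for Klf4 and 0.952 for Mras.

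In the germ cell and meiosis lists the genes that passed the test were lower at Day6. Over all probes 0.829% were called lower. Of 22 tested genes of germ cell transcription and signalling, 0 were called higher and 2 lower, with a median of -0.40 (-0.64 within A, -0.19 within B), against -0.05 for all probes tested. In 11 of the 22 the change was negative in both series and in 0 it was positive in both, while over all probes tested 34.8% were lower and 28.1% higher in both. The 2 called genes were Dnd1 and Dmrt1, a germline and testis transcription factor, which read 160.5 and 186 at Day3 and 25.02 and 48.6 at Day6 and fell 4.96-fold (-2.31 ± 0.30, adjusted p = 0.0300 in limma). Of 25 tested genes of germline RNA-binding proteins and granules, 0 were called higher and 4 lower, with a median of -0.26 (-0.25 within A, -0.31 within B), and 17 were lower in both series. Besides Dnd1 and Cpeb1 these were Tudor domain proteins of the germ granule. Tdrd5 read 118 and 59.3 at Day3 and 14.9 and 16.6 at Day6 and fell 5.31-fold, and Tdrkh, which helps to trim piRNAs, read 134 and 61.2 at Day3 and 25.1 and 15.4 at Day6 and fell 4.62-fold (-2.21 ± 0.26, adjusted p = 0.0269). In both genes every Day6 array lay below every Day3 array. Of 23 meiosis genes, 1 was called lower and 0 higher (median -0.44, 15 lower in both series). It was Stag3, a cohesin subunit of meiotic chromosomes, which read 107 and 91.8 at Day3 and 27.02 and 36.8 at Day6 and fell 3.14-fold (-1.65 ± 0.23, adjusted p = 0.0338).

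Of the 10 germ cell markers 1, Dnd1, was called, against 1.8% of all probes. Dppa3 had a change of -2.35 ± 0.68, with -3.51 within series A and -1.20 within series B, and no call (adjusted p = 0.150 in limma). Dazl had a change of -1.68 ± 0.71 and no call (adjusted p = 0.284), and its higher Day6 array lay above the lower Day3 array. Ddx4, the Vasa helicase of germ granules, read 277 and 175 at Day3 and 187 and 182 at Day6, values that overlapped between the days (change -0.26 ± 0.22). Kit, the stem cell factor receptor, read 324 and 251 at Day3 and 136 and 313 at Day6, and Nanos3, an RNA-binding protein of early germ cells, read 496 and 125 at Day3 and 121 and 174 at Day6. Both overlapped between days. Tfap2c, Prdm1 and Mael, regulators of germ cell specification and of transposon silencing, had changes of -0.69, -0.09 and -0.23 with no call, and the interferon-induced Ifitm3 had 0.25.

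The core and naive pluripotency genes that passed were higher at Day6. Of 15 core pluripotency genes tested, 1 was called higher and 0 lower, against 1.8% of all probes called (median 0.04). It was Fgf4, a growth factor under the control of the core network, which read 21.7 and 53.5 at Day3 and 149 and 257 at Day6, rising 5.76-fold (2.53 ± 0.28, adjusted p = 0.0243 in limma). Fgf4 was at 1.82 and 2.46 in E11.5 PGC, under the dim limit, and at 152 and 209.8 in EG cells, in the Day6 range. Of 20 naive regulators 4 were called higher and 0 lower, with a median of 0.24 (0.23 within A, 0.33 within B), against 0.974% of all probes called higher. Klf4, a Krüppel-like factor of the naive network and a target of LIF signalling, read 326 and 234 at Day3 and 859 and 774 at Day6 and rose 2.95-fold (1.56 ± 0.26, adjusted p = 0.0457). Tbx3, a T-box factor, read 59.5 and 149.6 at Day3 and 206 and 580.0 at Day6 and rose 3.66-fold (1.87 ± 0.22, adjusted p = 0.0282). Zfp57, a zinc finger protein that keeps methylation at imprinted loci, read 5.08 and 11.4 at Day3 and 27.2 and 43.6 at Day6 and rose 4.52-fold, with no value on either E11.5 PGC array. Mras, a Ras-family GTPase, rose by 1.66 ± 0.28.

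The other pluripotency markers had no call. Nanog had a change of 0.87 ± 0.34 (adjusted p = 0.247 in limma), being 0.68 within series A and 1.06 within series B. Zfp42, also named Rex1, read 3277 and 2865 at Day3 and 5822 and 3774 at Day6, with no overlap but no call (change 0.61 ± 0.21). The changes were 0.73 for Esrrb, 0.38 for Dppa5a, -0.21 for Tfcp2l1, -0.37 for Klf2 and -0.46 for Klf5. Tdgf1, or Cripto, a Nodal co-receptor, read 1173 and 388 at Day3 and 2344 and 2529 at Day6, higher on both Day6 arrays, at a change of 1.85 ± 0.49 (adjusted p = 0.126). Of 14 genes of the primed epiblast, the state after implantation, 1 was called higher, Nodal, and 1 lower, Cldn6, against 1.8% of all probes called. Otx2 and Dnmt3b had changes of 0.93 and 0.91 with no call, and Fgf5 was not tested because a value was missing.

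**Figure D4:**
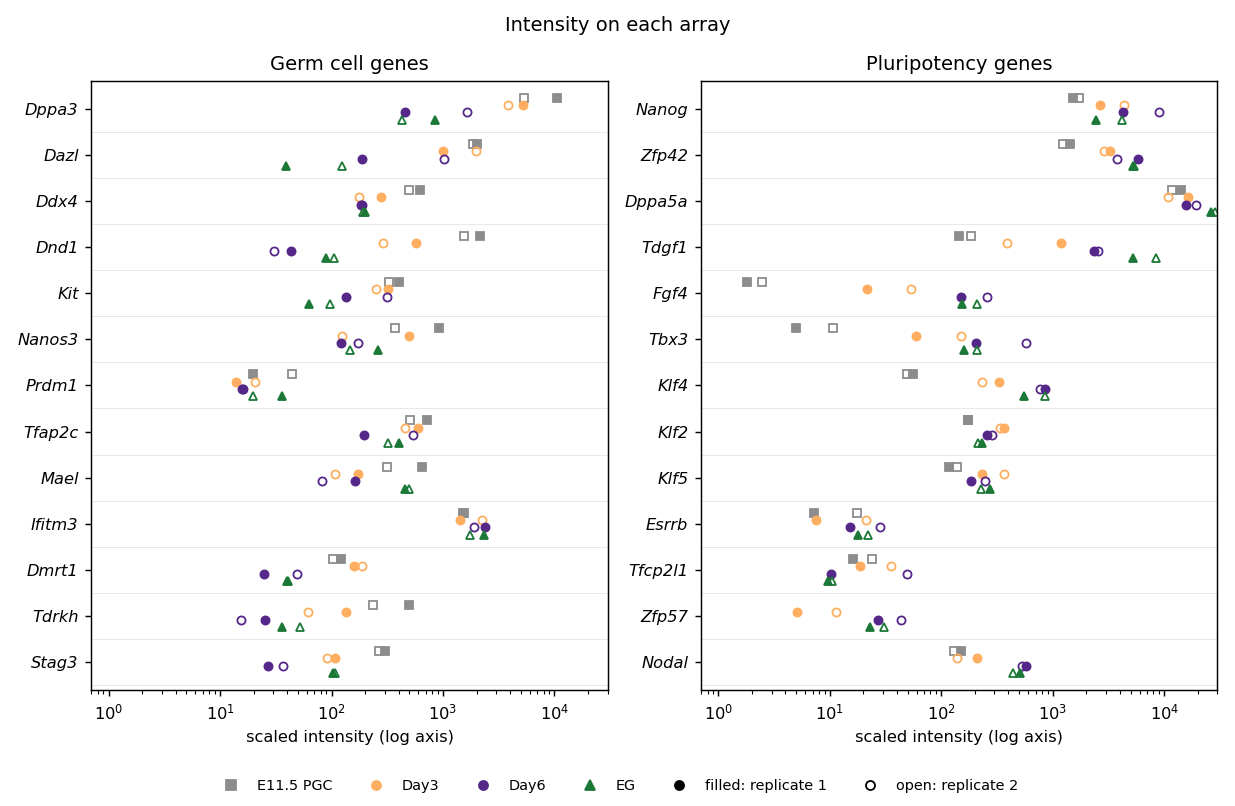
Scaled intensity (log axis) on each array for 13 germ cell genes (left) and 13 pluripotency genes (right), replicate 1 filled and replicate 2 open. Dnd1, Dmrt1, Tdrkh and Stag3 have both Day6 arrays below both Day3 arrays, while Fgf4, Tbx3, Klf4, Zfp57 and Nodal have both Day6 arrays above.

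The pathways that the medium acts on were read through their target genes. Of all probes 1.8% were called, and 1 call in a list describes that gene and not the pathway. MEK activity is commonly read from its feedback genes, and of 18 tested none was called (0 higher, 0 lower, median -0.26). The lowest p-values of that list were those of Epha2, an ephrin receptor, at 1.30 ± 0.28, and Egr1, an immediate early transcription factor, at -0.91 ± 0.23 (adjusted p = 0.078 and 0.111 in limma). Of 18 FGF ligands and receptors, 2 ligands were called higher, Fgf4 and Fgf3, and 1 receptor lower, Fgfr2, against 0.974% and 0.829% of all probes. Fgf3 read 7.66 and 12.8 at Day3 and 27.9 and 39.6 at Day6 and rose 3.37-fold (1.75 ± 0.21, adjusted p = 0.0284). Fgfr2 read 59.1 and 46.9 at Day3 and 12.3 and 14.6 at Day6 and fell 3.92-fold (-1.97 ± 0.25, adjusted p = 0.0300).

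Of 13 tested Wnt targets, which GSK3 inhibition relieves, 1 was called higher and 1 lower (median 0.12). Here and in the lists that follow, the share called over all probes was 1.8%. Cdx1, a caudal homeobox gene, read 51.99 and 44.5 at Day3 and 112 and 116 at Day6 and rose 2.37-fold, and Lef1 fell by 2.93 ± 0.43. Among 18 genes of Nodal, Activin and TGF-beta signalling, whose receptors A83-01 inhibits, 1 was called higher and 0 lower (median 0.01). It was the ligand Nodal itself, which read 209.5 and 138 at Day3 and 575 and 525 at Day6 and rose 3.23-fold (1.69 ± 0.21, adjusted p = 0.0300). Its EG arrays read 503 and 442. Of 18 BMP response genes 1 was called, Smad9, a receptor-regulated Smad, which read 1.39 and 1.08 at Day3 and 7.55 and 4.12 at Day6 and rose by 2.19 ± 0.23 from under the dim limit. Of 18 genes of LIF and STAT3 signalling Klf4 alone was called. Of 14 Notch genes 1 was called lower, the target gene Hey1, which read 62.4 and 33.9 at Day3 and 17.6 and 12.2 at Day6.

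DNA methylation and imprinting genes gave 2 calls each, against 1.8% of all probes called. Uhrf1, which brings the maintenance methyltransferase to newly copied DNA, read 741 and 355 at Day3 and 2365 and 1567 at Day6 and rose 3.75-fold (1.91 ± 0.22, adjusted p = 0.0263 in limma). With Zfp57, it made up the 2 called higher of 18 genes of DNA methylation, and 0 were called lower (median 0.08). Of 25 imprinted genes 0 were called higher and 2 lower, H19 and Peg3, a paternally expressed zinc finger gene, which read 50.2 and 109 at Day3 and 10.1 and 38.02 at Day6. The list as a whole lay at a median of 0.01. Of 33 chromatin regulators none was called at this threshold (median 0.03). The nearest to a call was Phf19, a Polycomb accessory protein, at -1.82 ± 0.39 (adjusted p = 0.0783).

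Epithelial adhesion genes held the most falls of the 42 gene lists counted. Of 22 tested, 0 were called higher and 5 lower, against 0.829% of all probes called lower, with a median of -0.45 (-0.74 within A, -0.24 within B), and 15 were lower in both series. The 5 were Esrp1, Cldn6, Dsp, Pkp2 and Epcam. Dsp, desmoplakin of the desmosome, read 114 and 75.9 at Day3 and 10.2 and 21.9 at Day6 and fell 6.22-fold (-2.64 ± 0.38, adjusted p = 0.0338 in limma). Pkp2, a plakophilin of the same junction, read 191 and 135 at Day3 and 19.98 and 36.4 at Day6 and fell 5.96-fold (-2.57 ± 0.35, adjusted p = 0.0311). Epcam, an adhesion protein shared by germ cells, stem cells and epithelia, read 2261 and 1069.8 at Day3 and 523 and 443 at Day6 and fell 3.23-fold (-1.69 ± 0.27, adjusted p = 0.0429). In these 3 genes both Day6 arrays lay under both Day3 arrays. EG cells read 27.2 and 28.3 for Dsp, 52.9 and 46.5 for Pkp2 and 2326 and 1719 for Epcam, all above the Day6 arrays. Series A, which holds the Day6 array on which some mesenchymal genes were bright, also had the lower median of this list. In series B, without that array, the 5 changes were -3.54 for Esrp1, -2.72 for Cldn6, -1.79 for Dsp, -1.89 for Pkp2 and -1.27 for Epcam, each smaller than in series A. The part of that array's mesenchymal signal in these falls was not tested.

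Among matrix genes 2 of 26 were called higher and 0 lower, the basement membrane proteins Nid1 and Lamc1. Beside this list and those that follow, 0.974% of all probes were called higher and 0.829% lower. Nid1 read 114 and 84.7 at Day3 and 960.1 and 399 at Day6 and rose 6.30-fold, and Lamc1 read 113 and 170.1 at Day3 and 284 and 348 at Day6 and rose 2.26-fold. Developmental transcription factors gave 3 falls and 0 rises among 29 tested (median -0.13), Pax6, Isl2 and Zfp521. Of 30 Hox genes 1 was called, Hoxc12, which rose by 1.71 ± 0.27 from under the dim limit. Of 17 oocyte and cleavage-stage genes 1 was called higher, Nlrp4f. Of 14 Rhox genes listed 4 were on the array and tested, and 1 was called lower, Rhox6.

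Each list of metabolic, growth and survival genes held at most 1 call, against 1.8% of all probes. Of 24 glycolysis genes, 0 were called higher and 1 lower, although the list had a median of 0.39 (0.38 within A, 0.24 within B). The call was Pfkfb3, an enzyme that sets the level of a glycolytic activator, which read 177 and 60.8 at Day3 and 51.7 and 18.1 at Day6 and fell by 1.76 ± 0.28, while Eno1, an enolase, had 1.19 ± 0.27 without a call. Cth, an enzyme of cysteine synthesis, read 185 and 156 at Day3 and 520.0 and 359 at Day6 and rose by 1.35 ± 0.20. It was the 1 called gene of both the 22 amino acid and one-carbon genes and the 22 genes of the integrated stress response. Bik, a pro-apoptotic member of the Bcl2 family, read 29.9 and 27.1 at Day3 and 7.04 and 5.87 at Day6 and fell by 2.15 ± 0.20, the 1 call of 18 in that list (median -0.36). Irf1, an interferon-regulated factor counted with MHC class I, read 306 and 305 at Day3 and 125 and 71.2 at Day6 and fell by 1.70 ± 0.25, 1 of 9. No call was made in limma at the threshold among 27 cell cycle genes (median 0.05), 20 p53 targets and CDK inhibitors (-0.11), 15 immediate early genes (-0.51), 29 genes of oxidative phosphorylation (-0.01), 19 of cholesterol synthesis (-0.09), 28 cytosolic ribosomal proteins (-0.03) or 31 actin, annexin and YAP-linked genes (0.04).

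**Figure D5:**
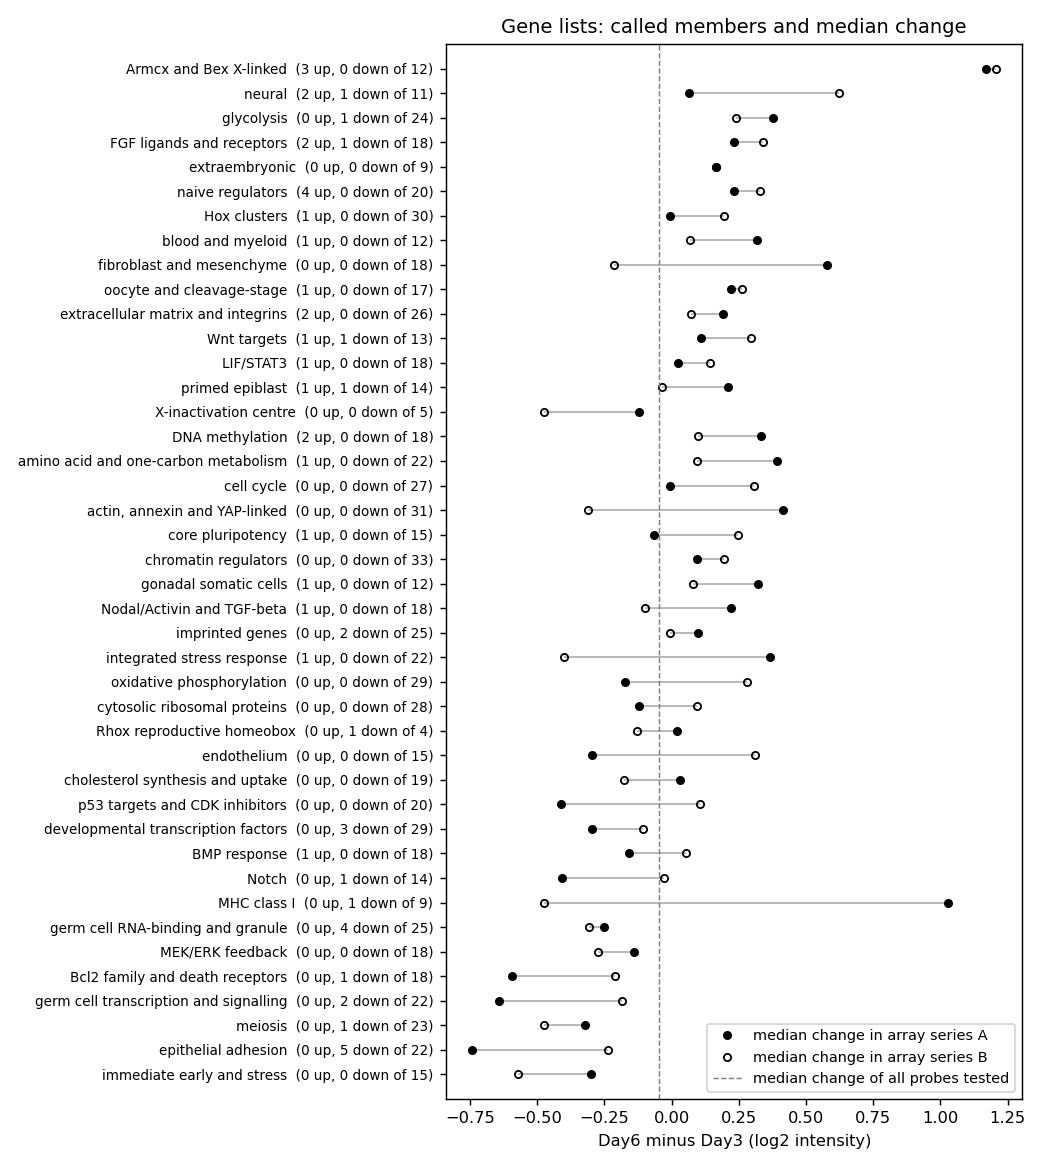
Median change from Day3 to Day6 (log2 intensity, horizontal axis) of each of 42 gene lists in array series A (filled) and series B (open), with the numbers called higher and lower of those tested beside each name. The Armcx and Bex genes lie highest, with medians of 1.17 and 1.21, the immediate early, epithelial and meiosis genes lie lowest by their median, and the mesenchymal, actin and MHC class I lists part between the series.

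Markers of other cells were followed, since sorted cultures can hold more than germ cells. The share called over all probes was 1.8%. For 18 fibroblast and mesenchyme genes none was called, but the list's median was 0.58 within series A and -0.21 within series B. Their summed intensity was 2617 and 1919 at Day3 and 5913 and 2692 at Day6. Thy1 had a change of 4.82 ± 1.10 (adjusted p = 0.0905 in limma), and Vim, an intermediate filament, 1.17 ± 0.52, both without a call. The actin, annexin and YAP-linked list (0.41 within A, -0.31 within B), the integrated stress response (0.37 and -0.40) and MHC class I (1.03 and -0.48) parted between the series in the same way, and the part of the mesenchymal signal in them was not tested. Of 22 genes listed with MHC class I only 9 were on the array, and the class I genes H2-K1 and H2-D1 had no probe. Among 12 genes of gonadal somatic cells 1 was called higher, Amhr2, the anti-Müllerian hormone receptor, which read 14.6 and 12.7 at Day3 and 42.2 and 30.9 at Day6. Its EG arrays read 136 and 143, above those of Day6, and its E11.5 PGC arrays 7.87 and 7.22. The sum of that list was 109 and 107 at Day3 and 155 and 122 at Day6. Of 15 endothelial and 9 extraembryonic genes none was called, with sums of 257 and 332 against 182 and 304, and of 217 and 109 against 200 and 116. At or under the dim limit on both days were 4 of the gonadal, 2 of the mesenchymal, 2 of the endothelial and 3 of the extraembryonic genes.

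Of 12 blood and myeloid genes, 2 of them dim on both days, 1 was called higher, Laptm5, and the list summed to 304 and 350 at Day3 and 657 and 590 at Day6. Laptm5 and Spic, a transcription factor of macrophages that read 78.4 and 156 at Day3 and 231 and 294 at Day6 with no call (1.24 ± 0.64), make up most of that difference: without them, a sum added after the values were seen, the list came to 212 and 185 at Day3 and 222 and 200 at Day6. Ptprc, the CD45 antigen that defines white blood cells, read 4.53 and 4.496 at Day3 and 2.81 and 3.71 at Day6, with no call (-0.48 ± 0.23), so it was near the floor on both days. Of 11 neural genes 2 were called higher, the neuronal tubulin Tubb3 and the tubulin-binding Stmn2, and 1 lower, Pax6, against 1.8% of all probes called. Tubb3 read 37.4 and 46.1 at Day3 and 117 and 127 at Day6 and rose 2.94-fold, and Stmn2 read 12.6 and 6.36 at Day3 and 139 and 46.1 at Day6 and rose 8.94-fold. EG cells read 52.98 and 41.98 and 159 and 214.

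The second 3 days of culture were then set against the first. The difference, the change from Day3 to Day6 minus that from E11.5 PGC to Day3, passed for 84 of 19745 probes (0.425%), of which 34 (0.172%) were positive and 50 (0.253%) negative. The count was 10 with no replicate block, 0 without any 1 array of Day3 or Day6, 2 and 28 without E11.5 PGC replicate 1 or 2, and 15 without either EG array. Both steps use the Day3 arrays, so that a high or low Day3 value pushes them in opposite directions. Several genes were at their highest at Day3. Pax6 went from 43.8 and 33.6 in E11.5 PGC to 143 and 94.7 at Day3 and 7.42 and 5.04 at Day6, so that the step difference was -5.85 ± 0.45 (adjusted p = 0.013 in limma). Cldn6 went from 28.2 and 29.9 to 149 and 164 at Day3 and 17.8 and 24.8 at Day6, and Rab20, a Rab GTPase of vesicle traffic, from 5.50 and 3.81 to 77.1 and 110.4 at Day3 and 15.3 and 20.99 at Day6, with step differences of -5.32 ± 0.51 and -6.70 ± 0.53. Their Day3 arrays thus stood above all of E11.5 PGC and Day6. Others were at their lowest. Klk8, a kallikrein protease, went from 39.1 and 45.3 to 1.94 and 2.78 at Day3 and 15.6 and 22.7 at Day6, and Itm2a from 21.1 and 27.8 to 11.9 and 19.5 at Day3 and 86.4 and 226 at Day6, with step differences of 7.20 ± 0.35 and 3.87 ± 0.51. Gfpt2 had a change of -0.44 in the first step and 3.19 in the second, and Mcf2 had -0.24 and 3.30. In limma the first-step fall was called for Klk8 (adjusted p = 0.00083) but not for Itm2a (0.212), Gfpt2 (0.298) or Mcf2 (0.512).

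Of the 195 probes called higher at Day6, 57 had also been called higher from E11.5 PGC to Day3 and 16 lower. Of the 166 called lower, 36 had been called lower and 24 higher in the first step. In the first step 1725 of 20678 probes (8.34%) were called. Of all 20015 probes tested from Day3 to Day6, 1032 had a first-step call of the same sign as their change and 640 of the opposite sign. Both tests share the Day3 arrays and each probe's estimate of spread, so a call in one step does not support a call in the other.

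Some probes had values on one day alone. A total of 71 probes were measured on both Day6 arrays and neither Day3 array, and 110 the reverse, with no fold and no test, because what left a value missing was not given in the sources used here. Among named ones at Day6 the brightest were Ifi202b, an interferon-induced gene, with 76.8 and 3.12, Eci3, an enoyl isomerase, with 4.97 and 8.39, Trpd52l3 with 3.30 and 3.88 and Ptgfr, the prostaglandin F receptor, with 3.19 and 3.999. Those measured at Day3 were Pparg, a nuclear receptor of fat cells, with 4.96 and 4.03, Slc6a17, a neuronal transporter, with 3.55 and 2.19, Cobll1 with 2.53 and 1.73 and Banf2 with 3.82 and 1.53. A brighter probe of Cobll1 was measured on both days, at 15.95 and 13.6 at Day3 and 9.24 and 5.66 at Day6 (-1.03, no call). Of these readings, Ifi202b on Day6 replicate 1 stood far above the dim limit, and replicate 2 did not.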

How the data were processed

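The deposited values are linear spot intensity from one-colour arrays, scaled by the authors to a median near 20 (19.99 to 20.01 per array). Background correction, scaling method and the reason for the 11674 missing cells were not given in the sources used here. Of 23473 probes, 16631 had 1 gene symbol in the platform annotation and 6842 had none, and 3947 older symbols were replaced through the RefSeq gene table. The Day3 and Day6 arrays measured 21126 to 22385 probes each, and 2 arrays per group limit the precision. Log2 values were fitted in limma 3.58.1 (R 4.3.3; lmFit and eBayes, tested on simulated data) on all 8 arrays with 4 groups and the array series as a block, two-sided, with Benjamini-Hochberg adjustment over all probes tested at 0.05. Testing a probe required all 4 Day3 and Day6 values, which left out 3458 probes. No pseudocount was used in the main fit. The pseudocount tried was 2.12, and the dim limit 4.24. The array series equals the replicate number in E11.5 PGC, Day3 and Day6. Deviations from the group means correlated between same-numbered arrays over 19524 probes at 0.620 for E11.5 PGC and Day3, 0.547 for E11.5 PGC and Day6 and 0.694 for Day3 and Day6, so the numbers were taken as pairs. Named genes were the 12 highest and 12 lowest called changes above the dim limit, up to 6 dim ones and 4 one-sided ones per direction, up to 5 called members of each gene list (or the lowest p-values), all markers, and 6 per direction for the step difference. In the gene lists a gene with several probes was taken at its brightest; among called and one-sided probes each probe stood for itself, and the gene's other probes are given. The members and the 42 gene lists were chosen with earlier results of these data known.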

Additional observations from a re-analysis of the deposited data

Results flagged for a closer look

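For 13 of the named genes the change from Day3 to Day6 differed from the change from E11.5 PGC to Day3 in limma's test of that difference, at an adjusted p under 0.05. The difference was positive for Klk8 (7.20), Lipc, hepatic lipase (4.85), Itm2a (3.87), Gfpt2 (3.63), Mcf2 (3.54) and Fblim1, a filamin-binding protein (3.44). It was negative for Rab20 (-6.70), Pax6 (-5.85), Trim50 (-5.56), Cldn6 (-5.32), A130010J15Rik (-4.63), Dap, a death-associated protein (-4.10), and Bik (-2.81). Lipc read 18.5 and 10.8 in E11.5 PGC, then 4.26 and 2.22 at Day3 and 27.7 and 13.6 at Day6. Both steps share the Day3 arrays, and groups of 2 arrays were too small for a test of single outlying arrays.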

How the results depend on the processing

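The 361 calls from Day3 to Day6 rest on the block for array series and on all 4 arrays of the comparison. The count was 0 with no replicate block, 295 with the replicate block on the 4 arrays of Day3 and Day6, 96 on the 6 arrays without EG, 487 with the array series as a random block, 262 after quantile normalization, 426 after centring, 850 with a pseudocount, 585 without dim probes and 889 with trend and robust variance. Leaving out an array gave 0 to 248. For the difference between the steps, the 84 calls became 10 with no replicate block, 15 on the 6 arrays, 131 with the random block, 43 after quantile normalization, 98 after centring, 314 with a pseudocount, 146 without dim probes and 365 with trend and robust variance, and 0 to 28 with an array left out. That difference could not be fitted on the 4 arrays of Day3 and Day6, which lack E11.5 PGC. Of the 361 probes called from Day3 to Day6, 205 were also called on the 4 arrays and 89 on the 6 arrays. With the random block 334 of them were called, and after quantile normalization 259. After centring 351 were called, with a pseudocount 357, without dim probes 341 and with trend and robust variance 359. Every called probe kept its direction in each setting that tested it. For the 361 this was largely fixed in advance, because all had the same sign in both series. Dropping the block, or arrays of E11.5 PGC or EG, also leaves the estimated change from Day3 to Day6 as it was. Of the 73 named genes called, all 73 lost the call with no replicate block or without any 1 array of Day3 or Day6, 33 on the 6 arrays, 10 on the 4 arrays, 10 after quantile normalization and 2 with the random block. Reversals came only from leaving out an array, in genes with no call: Tfap2c (-0.69, with -1.64 to 0.27), Kit (-0.47, with -1.24 to 0.30), Ifitm3 (0.25, with -0.14 to 0.64), Prdm1 (-0.09, with -0.54 to 0.35), Tfcp2l1 (-0.21, with -0.95 to 0.54) and Nanos3 (-0.78, with -1.86 to 0.31). The median of X probes minus that of autosomes, looked at after the data were seen, lay between 0.186 and 0.353 in these settings. Probe intensity near the floor limits the folds of genes under the dim limit.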

Other observations

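Secreted factors were among the calls in both directions. Edn1, the peptide endothelin, read 10.2 and 2.45 at Day3 and 53.1 and 38.4 at Day6 and rose 9.03-fold, and Igfbp2, a binding protein of insulin-like growth factors, read 143 and 319 at Day3 and 1738 and 2110.0 at Day6 and rose 8.97-fold. Vegfc, a lymphatic growth factor, rose by 2.12 ± 0.26 and the receptor Egfr by 1.74 ± 0.26. Cxcl5, a chemokine, read 10.7 and 15.5 at Day3 and 2.52 and 1.04 at Day6 and fell 7.94-fold. Foxo1, a forkhead transcription factor, fell by 1.24 ± 0.21, Txnip, an inhibitor of thioredoxin and of glucose uptake, by 1.48 ± 0.22 and Pdcd4, an inhibitor of translation, by 1.63 ± 0.26. All of these were called in limma and chosen after their values were seen.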
